A study of Mus musculus with 6 samples.

Results

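Keratins are the intermediate filament proteins of epithelial cells, and cornified envelope proteins form the hardened shell of squamous cells such as those of skin. The 59 genes described here, of 19844 in the expression table, were taken by name: 41 keratins (Krt followed by a digit), 14 small proline-rich protein genes (Sprr), and Lor, Sbsn, Dsg3 and Dsc3, which are 4 of the 5 further names in the rule. Poly-A RNA of the distal colon was sequenced from 3 ChREBP knockout (KO) and 3 wild-type (WT) mice of the C57BL6 strain. All 6 mice had received azoxymethane, a carcinogen, and dextran sulfate sodium, which injures the colon lining, and were sampled at day 17 of that course. ChREBP, encoded by Mlxipl, is a glucose-responsive transcription factor, and the study concerns its part in colorectal carcinogenesis and the Wnt/beta-catenin pathway. The labels give no age, do not describe the deleted part of the gene and do not say in which cells it was deleted.

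Expression was deposited as FPKM, fragments scaled by transcript length and by library size, so that levels of different genes can be set side by side. Depth, estimated from short genes, was 17700000 to 18475000 reads per library, at which 1 read was worth between 0.009 and 0.091 FPKM depending on transcript length. Mlxipl was at 3.40, 5.66 and 5.04 FPKM in KO libraries and 5.84, 7.49 and 7.27 FPKM in WT libraries, so its transcript was still present in the knockouts at 68.4% of the WT mean (log2 fold change -0.48, limma adjusted p = 0.9995). The labels call all 6 mice female, yet Ddx3y, a Y-linked gene, was at 9.51 to 10.18 FPKM in KO and 10.78 to 12.11 FPKM in WT libraries. Xist, a transcript of female cells, was at 0.02 to 0.04 FPKM in KO and 0.02 to 0.03 FPKM in WT libraries. Both genes thus go against the label of female. Intestinal identity was clear. Lgals4, Cdh17 and Vil1, genes of intestinal epithelium, averaged 2170.2, 221 and 193 FPKM in KO and 2044, 236 and 208 FPKM in WT libraries. Fold changes are KO minus WT in log2(FPKM + 1), a scale that shrinks differences between low levels, and adjusted p is from limma with Benjamini-Hochberg adjustment over 13247 tested genes. In bulk tissue, fewer cells of a type and less RNA per cell cannot be told apart.

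Keratin filaments assemble from pairs of an acidic type I and a basic type II chain, and which pair a cell makes follows its epithelium. Single-layered epithelia such as the colon use Krt8 with Krt18, Krt19 and, towards the lumen, Krt20, whereas stratified epithelia use Krt5 with Krt14 in the basal layer and Krt1 with Krt10 or Krt4 with Krt13 above it. Sprr proteins, loricrin (Lor) and similar precursors are cross-linked by transglutaminases under the membrane of squamous cells, and Sprr2a is also made by mouse intestinal epithelium, where it is induced by bacteria. Dsg3 and Dsc3 are the desmosomal cadherins of stratified epithelia.

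The Sprr2a locus of the mouse holds 3 near-identical neighbouring copies on chromosome 3, Sprr2a1, Sprr2a2 and Sprr2a3, followed by Sprr2b. Windows of 300 bases around the annotated gene starts (250 before, 50 after; RefSeq, GRCm38.p6) are shown for Sprr2a1, Sprr2b and Sprr1a, Sprr2a1 for its copies' shared sequence and high level, Sprr2b as their neighbour at a far lower level, and Sprr1a for its wide group difference. Capitals mark matches to TGANTCA, the AP-1 motif, and to TATAAA, and in Sprr2a1 and Sprr2b also the longest stretch that both windows share.
Sprr2a1, chr3:92215585-92215884, plus strand: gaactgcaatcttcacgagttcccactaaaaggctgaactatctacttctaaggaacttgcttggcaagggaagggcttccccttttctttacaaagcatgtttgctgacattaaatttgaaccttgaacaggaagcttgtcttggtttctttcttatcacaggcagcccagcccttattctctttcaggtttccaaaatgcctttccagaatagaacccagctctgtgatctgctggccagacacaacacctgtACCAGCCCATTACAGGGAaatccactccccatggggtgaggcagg
Sprr2b, chr3:92316455-92316754, plus strand: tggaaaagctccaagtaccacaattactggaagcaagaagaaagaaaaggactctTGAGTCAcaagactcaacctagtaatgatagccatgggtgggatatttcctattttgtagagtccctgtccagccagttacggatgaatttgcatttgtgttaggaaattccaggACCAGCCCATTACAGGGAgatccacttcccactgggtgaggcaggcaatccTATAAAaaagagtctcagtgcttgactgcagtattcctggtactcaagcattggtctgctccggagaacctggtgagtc
Sprr1a, chr3:92485832-92486131, minus strand: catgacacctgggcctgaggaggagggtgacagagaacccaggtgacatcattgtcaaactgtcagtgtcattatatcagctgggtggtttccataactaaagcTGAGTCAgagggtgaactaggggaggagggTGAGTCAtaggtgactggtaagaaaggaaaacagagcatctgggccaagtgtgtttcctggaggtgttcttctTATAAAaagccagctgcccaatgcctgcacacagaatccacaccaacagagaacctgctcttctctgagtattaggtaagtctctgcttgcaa
The Sprr2a2 window is identical to that of Sprr2a1 over all 300 bases. The Sprr2a3 window aligns over 272 bases with 0 mismatches, offset by its annotated start. The stretch shared by Sprr2a1 and Sprr2b is 18 bases long and lies 33 bases before TATAAA in Sprr2b, but only 27 bases before the end of the Sprr2a1 window, so the Sprr2a1 window stops short of the corresponding position.

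Of the 59 members, 42 had a window in that table, with 43 windows in all. The AP-1 motif TGANTCA, searched on both strands, occurred in 13 of the 43 windows (30.2%), against 7.81% of 32851 windows of all genes. Those windows belonged to Krt13, Lor, Sbsn and 9 Sprr genes, among them Sprr1a with 2 matches and Sprr2b with 1. The Sprr genes are related neighbours on chromosome 3, so their windows are not independent, and Krt13 was the only keratin with the motif. TATAAA occurred in 23 windows (53.5%), against 13.6% of all windows, including those of Krt8 and Krt20. CACGTG, an E-box motif of many transcription factors, occurred in 2 windows (4.65%), those of Krt23 and Krt78, against 7.15% of all windows. Because these exact letters are not particular to ChREBP, their share is not a count of ChREBP sites. These are matches of letters and were not tested for binding.

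By mean FPKM over the 6 libraries, Krt8 ranked 10, Krt19 11, Krt20 171 and Krt18 277 among the 19844 genes. These simple keratins did not differ between genotypes beyond the spread of the mice. Krt8, the type II chain, was at 2015, 1650.2 and 1791 FPKM in KO libraries and 1877, 1735 and 1559 FPKM in WT libraries. Its groups overlapped, with means of 1819 ± 184 FPKM in KO and 1724 ± 159 FPKM in WT (SD, n = 3 each). The log2 fold change of Krt8 was 0.08 with a 95% interval of -0.26 to 0.41. Of its 100-base transcript windows, 16.9% also occur in the pseudogene Krt8-ps, to which reads could have been assigned.

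Krt19, the type I chain of simple epithelia that lacks most of the tail domain, was almost as abundant as Krt8. It was at 1868, 1610.1 and 1573 FPKM in KO libraries and 1815, 1927 and 1544 FPKM in WT libraries. The groups overlapped, and the log2 fold change was -0.06 (interval -0.40 to 0.28). Krt18, the usual partner of Krt8 and its direct neighbour on chromosome 15, was at 255.5, 256 and 212 FPKM in KO libraries and 228, 229.5 and 249 FPKM in WT libraries (log2 fold change 0.03, interval -0.23 to 0.28).

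Krt20, which marks differentiated cells of the upper crypt and surface, had the widest relative spread of the simple keratins among the knockouts. It was at 489, 329 and 237 FPKM in KO libraries and 428, 399 and 366 FPKM in WT libraries. KO replicate 1 was the highest of the 6 libraries and KO replicates 2 and 3 were the lowest, so the KO mean of 351 ± 128 FPKM spans the WT mean of 397 ± 31.1 FPKM. Its log2 fold change was -0.24 (interval -0.79 to 0.31), and was 0.015 when KO replicate 3 was left out. Krt20 made up 10.6%, 8.55% and 6.20% of the summed simple keratins in KO libraries and 9.84%, 9.30% and 9.83% in WT libraries.

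Krt7, a type II keratin of glandular and ductal epithelia, was the next most abundant keratin. Its levels were 84.9, 70.2 and 63.7 FPKM in KO libraries and 69.3, 70.9 and 67.3 FPKM in WT libraries (log2 fold change 0.07, interval -0.21 to 0.34). The ratio of type I chains (Krt18, Krt19, Krt20) to type II chains (Krt7, Krt8) was 1.24, 1.28 and 1.09 in KO libraries and 1.27, 1.41 and 1.33 in WT libraries. The groups overlapped in that ratio through KO replicate 2 and WT replicate 1. Non-keratin genes of simple epithelium were not called either: 0 of 10 tested genes, among them Lgals4 and Epcam, passed limma at an adjusted p under 0.05, with 0 also at an unadjusted p under 0.05 and a median log2 fold change of 0.01. Of the desmosome genes that simple epithelia use (Dsp, Jup, Pkp2, Pkp3, Dsg2 and Dsc2), 0 of 6 were called by limma, with 0 at an unadjusted p under 0.05. Of these 6, 5 were highest in KO replicate 1, and their sum was 440, 314 and 350.5 FPKM in KO libraries and 375, 383 and 354 FPKM in WT libraries.

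**Figure D1:**
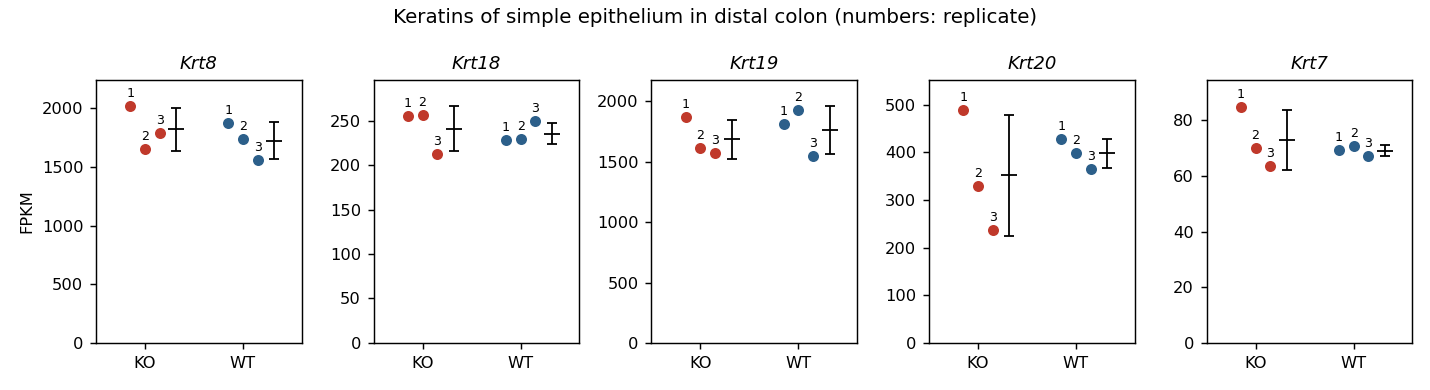
FPKM of Krt8, Krt18, Krt19, Krt20 and Krt7 in each library (points, numbered by replicate; KO left, WT right), with the group mean and SD beside them (n = 3 each). The groups overlap in all 5 genes, and Krt20 spans 237 to 489 FPKM among KO libraries against 366 to 428 FPKM among WT libraries.

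Outside the simple keratins, the highest level by far belonged to Sprr genes, and within them to the 3 Sprr2a copies. Sprr2a3 was at 4982, 6979 and 6586.5 FPKM in KO libraries and 4352, 3963 and 4973 FPKM in WT libraries. The groups did not overlap, but KO replicate 1 and WT replicate 3 differed by less than the spread within either group. Its log2 fold change was 0.47 (SE 0.20, interval 0.02 to 0.93), with an unadjusted limma p of 0.0432 and an adjusted p of 0.9995. Sprr2a1 was at 1771, 2499 and 2577 FPKM in KO libraries and 1396, 1475 and 1779 FPKM in WT libraries. KO replicate 1 lay inside the WT range and the other KO libraries above it, and the log2 fold change was 0.55 (SE 0.19), with an unadjusted limma p of 0.0198 and an adjusted p of 0.9995. Sprr2a2 was at 1258, 2313 and 2217 FPKM in KO libraries and 1421, 972 and 1386 FPKM in WT libraries, again with KO replicate 1 the lowest KO library (log2 fold change 0.58, interval -0.03 to 1.19).

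These copies are not independent measurements. Over the aligned bases of their annotated transcripts there are 2 mismatches between Sprr2a1 and Sprr2a2 and 10 between Sprr2a3 and either of the others. Of the 100-base windows of Sprr2a1, 92.5% also occur in another copy or in Sprr2b, and of those of Sprr2a3, 16.6%. Their annotated lengths differ (3003, 2867 and 682 bases for Sprr2a1, Sprr2a2 and Sprr2a3), so their summed FPKM still depends in part on how the authors' counting divided the reads. The sum was 8011, 11791 and 11380.0 FPKM in KO libraries and 7169.5, 6409 and 8138 FPKM in WT libraries. KO replicates 2 and 3 stood above all WT libraries and KO replicate 1 just under WT replicate 3. The means were 10394 ± 2074 FPKM in KO and 7239 ± 866 FPKM in WT, a ratio of 1.44. Sprr2a3 held 57.9% to 62.2% of the sum in KO libraries and 60.7% to 61.8% in WT libraries, so the copies kept similar shares. The copies together made 1.82% to 2.57% of all FPKM in KO libraries and 1.44% to 1.82% in WT libraries.

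Sprr1a had the widest difference among the members above 5 FPKM. It was at 24.88, 19.95 and 10.97 FPKM in KO libraries and 9.05, 8.89 and 6.73 FPKM in WT libraries. Every KO library was above every WT library, and the KO mean of 18.6 ± 7.05 FPKM was 2.26 times the WT mean of 8.22 ± 1.30 FPKM. The log2 fold change was 1.03 (SE 0.27, interval 0.41 to 1.64), with an unadjusted limma p of 0.00496 and an adjusted p of 0.9995, and it ranged from 0.79 to 1.35 as each library was left out. The KO libraries fell in another order than for Sprr2a, with replicate 1 highest and replicate 3 lowest.

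Sprr2h was also higher in each KO library, at a far lower level of 2.85, 2.77 and 3.28 FPKM, against 1.98, 1.02 and 0.31 FPKM in WT libraries. At the estimated depth those levels are about 37.4 to 44.8 reads in KO and 4.14 to 27.1 reads in WT libraries. The log2 fold change was 0.99 (SE 0.27), with an unadjusted limma p of 0.00643 and an adjusted p of 0.9995. It passed the filter on low values in 3 KO but 2 WT libraries. Sprr2b, next to the Sprr2a copies, was at 19.17, 26.76 and 34.48 FPKM in KO libraries and 24.04, 20.65 and 20.72 FPKM in WT libraries, with KO replicate 1 lowest and replicate 3 highest of all (log2 fold change 0.25, interval -0.19 to 0.70). The remaining 8 Sprr rows, Sprr1b, Sprr2d, Sprr2e, Sprr2f, Sprr2g, Sprr2i, Sprr2j-ps and Sprr2k, were at 0 to 0.36 FPKM in every library and were not tested. Levels dropped sharply next to Sprr2b on the chromosome: Sprr2d, the coding gene after Sprr2b, was listed at 0 in all KO libraries and reached 0.17 FPKM in 1 WT library.

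**Figure D2:**
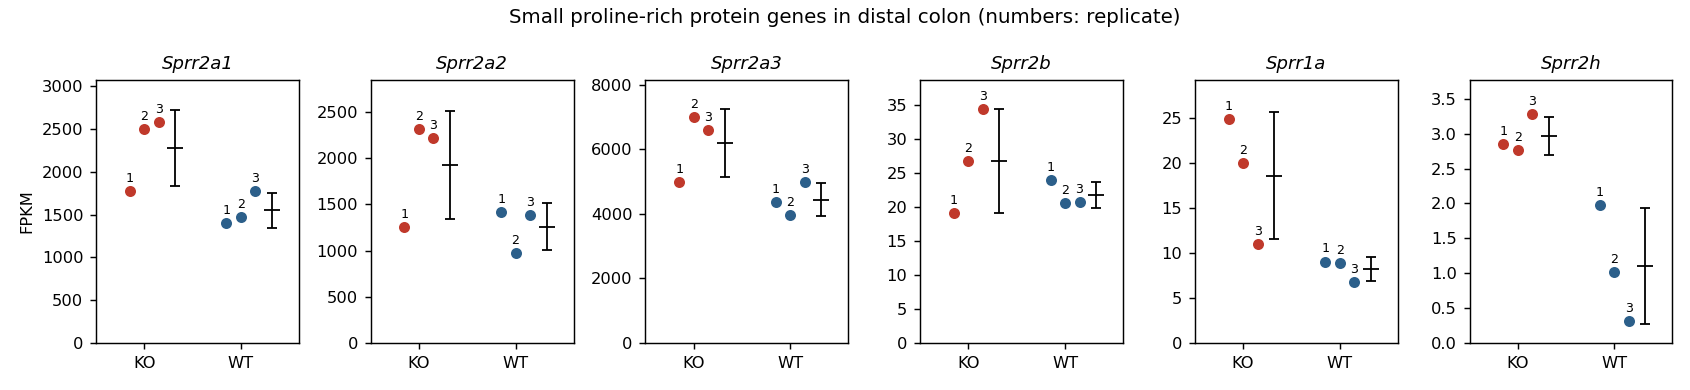
FPKM of the 6 tested Sprr genes in each library (points, numbered by replicate; KO left, WT right), with group mean and SD (n = 3 each) and a separate axis per gene. Every KO library is above every WT library for Sprr2a3, Sprr1a and Sprr2h, while KO replicate 1 falls inside or below the WT range for Sprr2a1, Sprr2a2 and Sprr2b.

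Of the envelope and desmosome members, Sbsn (suprabasin, secreted by suprabasal cells) was tested. It was at 1.04, 1.43 and 1.69 FPKM in KO libraries and 0.65, 0.81 and 1.13 FPKM in WT libraries, overlapping through KO replicate 1 and WT replicate 3 (log2 fold change 0.36, interval -0.02 to 0.73). It passed the filter in 3 KO libraries but 1 WT library. Lor, the main envelope protein of epidermis, was at 0.12, 0.19 and 0.90 FPKM in KO libraries and 0.40, 0.38 and 0.41 FPKM in WT libraries, with KO libraries both lowest and highest. Dsg3 was at 0.23, 0.03 and 0.07 FPKM in KO libraries and 0.03, 0.03 and 0.06 FPKM in WT libraries, and Dsc3 stayed between 0.09 and 0.18 FPKM in KO and 0.07 and 0.16 FPKM in WT libraries. Simple-epithelial Dsg2 averaged 116 ± 20.9 FPKM in KO and 117 ± 7.26 FPKM in WT libraries, far above Dsg3.

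Of the genes that act on the envelope, 1 transglutaminase was abundant and another was not. Tgm3, a transglutaminase that cross-links Sprr proteins and loricrin in skin, was at 314, 497 and 523 FPKM in KO libraries and 437, 396 and 542 FPKM in WT libraries, whereas Tgm1, the membrane-bound form, stayed below 1 FPKM in all 6. Of 6 tested genes of the cross-linking list, which also holds S100a11, Evpl and Scel, 3 had positive and 3 negative log2 fold changes (median -0.02). Limma called 0 of the 6 at an adjusted p under 0.05, with 0 at an unadjusted p under 0.05.

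Among the keratins of stratified epithelia, Krt17, which basal and injured epithelia make, held the largest share. It was at 3.82, 2.48 and 3.37 FPKM in KO libraries and 2.74, 6.79 and 3.06 FPKM in WT libraries, where WT replicate 2 stood apart. Its log2 fold change was -0.23 (interval -0.87 to 0.41) and was 0.10 without WT replicate 2. Krt14, the basal type I chain, was at 3.49, 1.58 and 1.22 FPKM in KO libraries and 1.31, 1.95 and 0.67 FPKM in WT libraries (log2 fold change 0.39, SE 0.30). Its type II partner Krt5 was far lower, at 0.25, 0.17 and 0.15 FPKM in KO libraries and 0.20, 0.05 and 0.05 FPKM in WT libraries, about 5.99 to 10.1 reads in KO and 1.94 to 7.99 reads in WT.

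Krt10, the suprabasal chain of epidermis, was at 1.11, 1.03 and 1.18 FPKM in KO libraries and 0.63, 0.89 and 0.69 FPKM in WT libraries. The groups did not overlap, but Krt10 reached the 1 FPKM filter in KO libraries alone and so entered the test because it was higher there (log2 fold change 0.28, interval -0.01 to 0.57). Its epidermal partner Krt1 was at 0 to 0.05 FPKM in KO and 0 to 0.07 FPKM in WT libraries. Krt23, a type I keratin, was lower in each KO library, at 1.66, 1.41 and 1.5 FPKM against 2.25, 1.80 and 2.01 FPKM in WT libraries (log2 fold change -0.26, interval -0.54 to 0.03). Krt80, a type II keratin under the filter, was at 0.53, 0.44 and 0.50 FPKM in KO libraries and 0.94, 0.71 and 0.83 FPKM in WT libraries, also without overlap. With the filter lowered to 0.1 FPKM, Krt80 had an unadjusted limma p of 0.0111 and an adjusted p of 0.999. Of the 14 members added by that filter, Krt80 alone had an unadjusted limma p under 0.05, as had 569 of all 16655 genes.

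Several low keratins were high in KO replicate 1 and not in the other KO libraries. Krt13, a mucosal squamous chain, was at 2.92, 0.75 and 0.24 FPKM in KO libraries and 0.76, 1.0 and 0.33 FPKM in WT libraries. Krt84, a type II keratin of nail and tongue, was at 2.97, 0.52 and 0.80 FPKM in KO libraries and 0.75, 1.20 and 0.42 FPKM in WT libraries. Krt90, which the fixed classes do not place, was at 2.75, 0.33 and 0.07 FPKM in KO libraries and 0.20, 0.36 and 0.13 FPKM in WT libraries. In estimated reads KO replicate 1 held about 89.2 for Krt13, 141 for Krt84 and 129 for Krt90, and no other library exceeded 29.3, 54.6 and 16.1 reads for the same genes.

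The higher KO means of these genes rest on that library. The mean of KO replicates 2 and 3 was 0.495 FPKM for Krt13, 0.66 for Krt84 and 0.20 for Krt90, within the WT range of each gene. Krt36, a hard keratin, was also highest in KO replicate 1, at 2.64, 1.55 and 0.94 FPKM in KO libraries and 1.14, 1.17 and 0.75 FPKM in WT libraries. Unlike the genes above, its KO replicate 2 also stood above all WT libraries. The log2 fold change of Krt36 was 0.38 (interval -0.15 to 0.91), and 0.15 without KO replicate 1. The gene listed as Krt83 (NCBI gene 406219, named Krt87 in RefSeq) was at 2.67, 1.24 and 0.99 FPKM in KO libraries and 1.28, 1.45 and 1.56 FPKM in WT libraries. Its log2 fold change was 0.06, and -0.20 without KO replicate 1. Part of its transcript, 10.97% of the 100-base windows, also occurs in other hair keratins.

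Krt36, Krt13 and Krt15 are consecutive coding genes on chromosome 11, and Krt84 and Krt90 flank Krt82 on chromosome 15, which was listed at 0 in all KO libraries and reached 0.03 FPKM in 1 WT library. Krt15 was at 0.77, 0.43 and 0.32 FPKM in KO libraries and 0.45, 0.30 and 0.33 FPKM in WT libraries. Counted after their values were seen, 10 of the 18 keratins outside the simple class with a mean of 0.1 FPKM or more were highest in KO replicate 1. Among all 7579 genes with means between 0.1 and 5 FPKM, 14.1% were highest in that library. The 18 and the 10 both include Krt7, whose mean of 71.1 FPKM lies above that range. Other epithelial lists differed from one another in that library. Of the 20 measured non-keratin squamous genes, 4 were highest and 3 lowest there, and of 10 cross-linking genes 4 were highest and 2 lowest. Of 6 desmosome genes of simple epithelium 5 were highest and 0 lowest, and of 10 further simple epithelial genes 4 were highest and 0 lowest. Among all tested genes, 17.3% were highest in that library. Sfn and S100a11, which keratinocytes and colon both express, were highest there, at 176, 102 and 83.8 FPKM and at 627, 455 and 356 FPKM in KO libraries. Their WT libraries were at 104, 111 and 86.7 FPKM for Sfn and 392.2, 457 and 358 FPKM for S100a11. Casp14, a caspase of cornifying skin, was lowest there, at 9.39, 19.18 and 24.16 FPKM in KO libraries and 15.39, 19.0 and 17.02 FPKM in WT libraries.

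Several markers that define squamous tissue were low in all libraries, though some of the low ones were also highest in KO replicate 1. Trp63, the factor that establishes stratified epithelia, was at 0.02, 0.01 and 0 FPKM in KO libraries and 0, 0.01 and 0.02 FPKM in WT libraries. Of 20 non-keratin squamous genes in the table, 12 stayed under 1 FPKM in every library, among them Lypd3, Calml3, Krtdap and Crnn. Others of that list were not low. Ly6d was at 8.54 to 13.89 FPKM in KO and 6.36 to 18.95 FPKM in WT libraries. Pkp1 was at 11.92 to 17.9 FPKM in KO and 16.61 to 19.02 FPKM in WT libraries. Serpinb5 was at 28.35 to 35.24 FPKM in KO and 26.06 to 29.81 FPKM in WT libraries. Crnn was at 0.54, 0.14 and 0.14 FPKM in KO libraries and 0.27, 0.32 and 0.11 FPKM in WT libraries, and Dsg3, Krt5 and Krt6a were likewise highest in KO replicate 1. The summed level of all 20 was 257, 179 and 162 FPKM in KO libraries and 182, 201 and 162 FPKM in WT libraries, most of it Sfn, Serpinb5, Pkp1 and Casp14. Limma called 0 of its 7 tested genes, with 0 at an unadjusted p under 0.05, 2 positive and 5 negative log2 fold changes and a median of -0.11. The part of these genes in the pattern of KO replicate 1 was not tested.

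**Figure D3:**
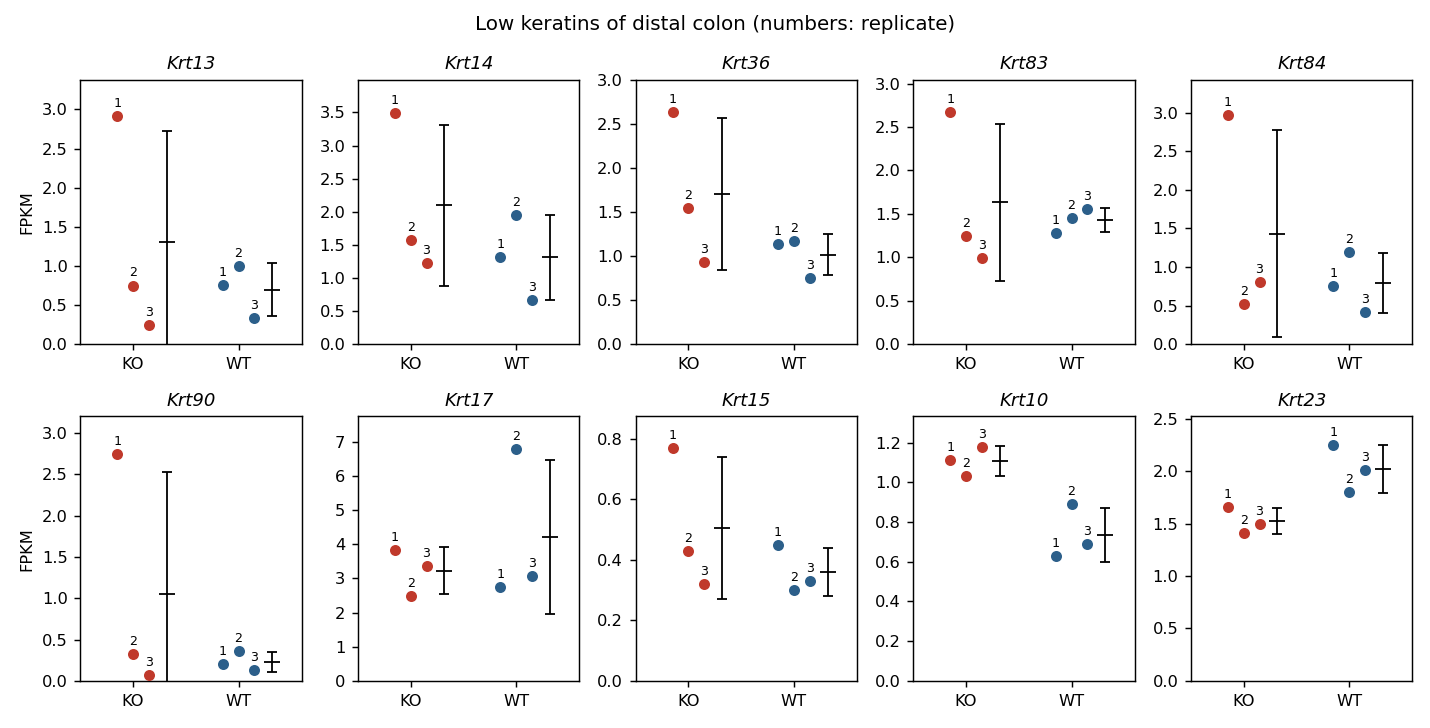
FPKM of 10 low keratins in each library (points, numbered by replicate; KO left, WT right), with group mean and SD (n = 3 each; bars that pass below 0 are cut at the axis). KO replicate 1 is the highest library for Krt13, Krt14, Krt36, Krt83, Krt84, Krt90 and Krt15, whereas the groups separate for Krt10 and Krt23.

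The remaining keratins were under the filter and were not tested. Krt78 reached 1.20 FPKM in KO replicate 2 and stayed at 0.32 to 0.57 FPKM in the other libraries. Krt222 was at 0.41 to 0.61 FPKM in KO and 0.41 to 0.88 FPKM in WT libraries, Krt85 at 0.43 to 0.71 FPKM in KO and 0.36 to 0.51 FPKM in WT libraries, and Krt12 at 0.33 to 0.76 FPKM in KO and 0.21 to 0.40 FPKM in WT libraries. Of the 11 untested hair and root sheath keratins, 9 had means under 0.1 FPKM. The wound-associated chains Krt6a, Krt6b and Krt16 did not exceed 0.22 FPKM in KO or 0.21 FPKM in WT libraries. Among all members, 26 had a mean under 0.1 FPKM and did not exceed 0.23 FPKM in any library, and 13 of the 59 were above 0 in a single library.

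Squamous keratins were a trace beside simple keratins in both genotypes. The 15 squamous keratins (basal, mucosal, epidermal and wound-associated) summed to 13.18, 7.96 and 7.10 FPKM in KO libraries and 6.58, 11.80 and 5.81 FPKM in WT libraries. Krt8, Krt18, Krt19 and Krt20 summed to 4628, 3845 and 3812 FPKM in KO libraries and 4347, 4291 and 3718 FPKM in WT libraries. Per 1000 FPKM of simple keratins there were thus 2.85, 2.07 and 1.86 FPKM of squamous keratins in KO libraries and 1.51, 2.75 and 1.56 in WT libraries. KO replicate 1 and WT replicate 2 were high and the groups overlapped. The log2 ratio differed by 0.25 between the group means, less than its SD within groups of 0.41. It was 0.07 without KO replicate 1 and 0.53 without WT replicate 2, whose Krt17 was high.

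Set against the same simple keratins, the Sprr2a copies gave a ratio of 1.73, 3.07 and 2.99 in KO libraries and 1.65, 1.49 and 2.19 in WT libraries. KO replicates 2 and 3 stood apart from the other 4 libraries. The squamous keratins were highest in the KO library in which Sprr2a was lowest. Colonocyte genes, among them Ceacam1 and Car4, summed to 2951, 3187 and 3723 FPKM in KO libraries and 3976, 3119 and 3221 FPKM in WT libraries. Goblet cell genes summed to 8335, 10014 and 5744 FPKM in KO libraries and 9495, 7855 and 10402 FPKM in WT libraries, and all 5 had negative log2 fold changes (median -0.14). Within them Clca1, a secreted goblet cell protein, was at 1652, 1892 and 1547 FPKM in KO libraries and 2873, 2059 and 2559 FPKM in WT libraries, without overlap. Its log2 fold change was -0.55, with an unadjusted limma p of 0.0121 and an adjusted p of 0.9995. Among all tested genes, 8.67% had groups without overlap and 3.4% an unadjusted limma p under 0.05. Smooth muscle genes summed to 2632, 2485 and 3832 FPKM in KO libraries and 2326, 3127 and 2631 FPKM in WT libraries, and all 5 had positive log2 fold changes (median 0.13). Leukocyte genes summed to 182, 272 and 179 FPKM in KO libraries and 199, 262 and 226 FPKM in WT libraries. Of the 5 leukocyte genes 4 had negative log2 fold changes, as had 4 of the 5 colonocyte genes. Log2 fold changes were positive for 52.7% of all tested genes. Urothelial genes summed to 12.1, 17.8 and 15.02 FPKM in KO libraries and 10.4, 13.1 and 15.2 FPKM in WT libraries, nearly all of it Upk1a, and mesothelial genes to 5.38, 1.04 and 0.72 FPKM in KO and 4.23, 0.54 and 6.96 FPKM in WT libraries. The part of these cell types in the levels of the members was not tested.

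**Figure D4:**
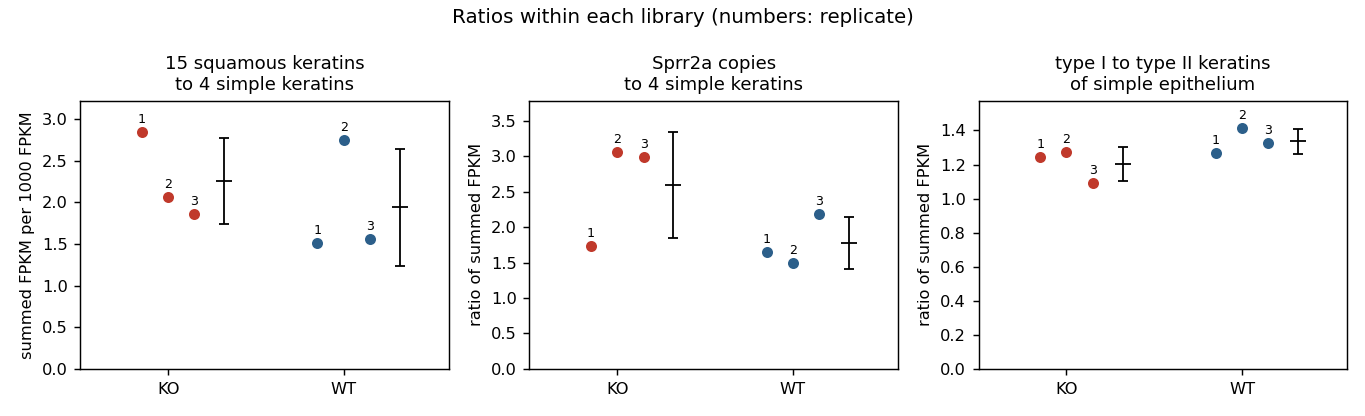
Ratios of summed FPKM within each library (points, numbered by replicate; KO left, WT right) with group mean and SD (n = 3 each): squamous keratins per 1000 FPKM of simple keratins, Sprr2a copies over simple keratins, and type I over type II chains. The groups overlap in all 3 ratios, and KO replicate 1 is the highest library in the first and the lowest KO library in the second.

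Across the members, 18 passed the filter of 1 FPKM in at least 3 of 6 libraries: 4 simple keratins, 7 other keratins, 6 Sprr genes and Sbsn. Of these, 12 reached 1 FPKM in all libraries, while Krt10, Sbsn, Sprr2h, Krt14, Krt36 and Krt83 passed in fewer. Limma called 0 of the 18 at an adjusted p under 0.05, where it called 2 of 13247 genes in all (0.0151%), and each member had an adjusted p of 0.9995. At an unadjusted p under 0.05 there were 4 members, Sprr1a, Sprr2h, Sprr2a1 and Sprr2a3, against 3.4% of all tested genes, and 2 of those share reads. Groups did not overlap for 5 members, Sprr1a, Sprr2a3, Sprr2h and Krt10 with KO above and Krt23 with KO below, against 8.67% of all tested genes (4.53% with KO above and 4.14% with KO below). Log2 fold changes were positive for 14 of the 18 and for 52.7% of all tested genes. The median log2 fold change was -0.02 for the simple keratins, 0.37 for the 14 other tested members and 0.01 for all tested genes. Krt10 passed the filter in KO libraries alone, and Sbsn, Sprr2h and Krt14 reached 1 FPKM in more KO than WT libraries. The member counts above and the median of the 14 are therefore descriptions and not tests. For 14 of the 18 the 95% interval lay within 2-fold of FPKM + 1 in either direction, against 97.0% of all tested genes. The exceptions were Sprr1a, Sprr2h, Sprr2a2 and Krt14. For members near 1 FPKM this does not bound the change in FPKM itself. With a pseudocount of 0.1 in place of 1, the log2 fold change was 0.63 rather than 0.36 for Sbsn and 0.54 rather than 0.28 for Krt10.

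**Figure D5:**
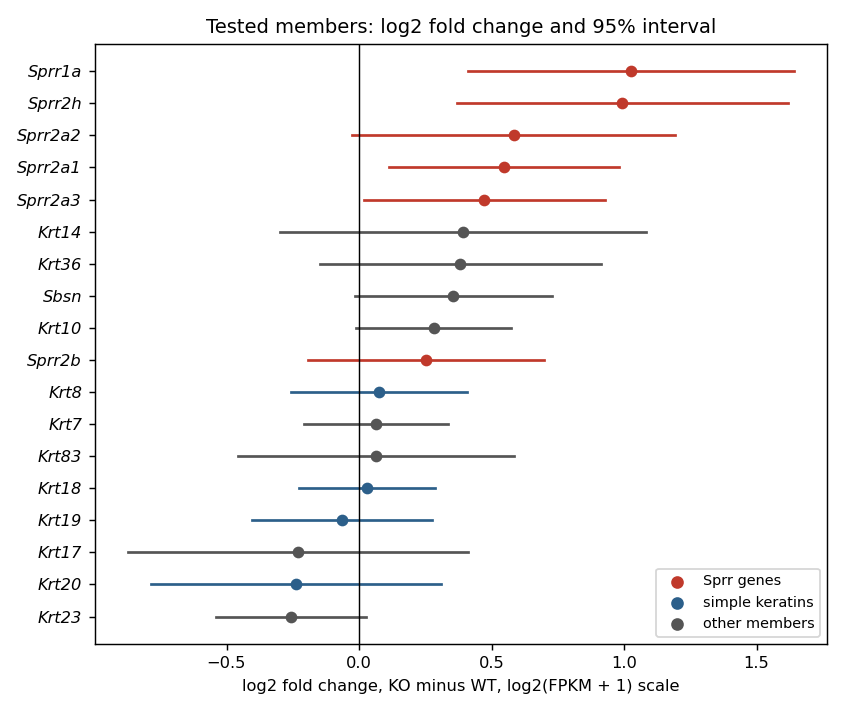
Log2 fold change (KO minus WT, log2(FPKM + 1) scale) of the 18 tested members with limma's 95% interval, ordered by size and coloured by class. The 5 largest belong to Sprr genes, from 0.47 for Sprr2a3 to 1.03 for Sprr1a, and the 4 simple keratins lie between -0.24 and 0.08.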

How the data were processed

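The 6 libraries were grouped by the genotype label (3 KO, 3 WT), with replicate numbers from the titles. Per the labels' protocols, poly-A RNA was selected, fragmented and copied with random primers, and no step that marks strand is named. The authors deposited FPKM values with 2 decimals for 19844 genes; HISAT2, RSEM and mm39 are named in the submitters' processing notes, without versions or filters. The p-values measure the spread between mice, as the series design gives 3 per group.

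Genes with at least 3 of 6 libraries at or above 1 FPKM were tested on log2(FPKM + 1) with limma 3.58.1 in R 4.3.3 (trended eBayes, genotype alone, two-sided, threshold 0.05). The method was tested on simulated data with the same spread for every gene and changes placed only in genes above 5 FPKM. Its power for lower members was not tested. Reads per library were estimated from 350 genes of up to 150 bases by the depth that placed most values within 0.05 of whole reads (82.2% to 87.3%). Windows shared between transcripts came from GENCODE, and promoter windows and gene order from RefSeq (GRCm38.p6), of which gene order and names alone were applied to the mm39 table. Of the 59 members 58 matched RefSeq identifiers, Krt85 being the exception. Ivl was not analysed here. All tested members were named, with each Sprr, Lor, Sbsn, Dsg3 and Dsc3, and of untested keratins the 6 highest by mean; further untested keratins named were chosen after their values were seen. Members, classes and lists were chosen with earlier results of these data known. Python 3.11.15, pandas 2.3.3, Biopython 1.88 and matplotlib 3.10.9 were used. Pseudocount, filter, scaling, variance model, left-out libraries and a replicate block were varied.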

Additional observations from a re-analysis of the deposited data

How the results depend on the processing

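No member was called by limma under any of the alternatives tried (smallest adjusted p of a member 0.297), and 244 of 251 combinations of member and alternative kept the direction. The 7 reversals all came from leaving out 1 library. The log2 fold change then ranged from -0.016 to 0.12 for Krt18, -0.048 to 0.16 for Krt7, -0.20 to 0.24 for Krt83, -0.51 to 0.015 for Krt20, -0.16 to 0.0044 for Krt19 and -0.43 to 0.10 for Krt17. The 2 genes called over all genes became 4 with a filter of 0.1 FPKM, and 0 to 1 with a library left out (323 to 807 genes at an unadjusted p under 0.05). With the replicate block limma called 0 (504 at an unadjusted p under 0.05). Same-numbered libraries correlated at 0.27, -0.10 and 0.06 in their deviations from the group means. Within a group these deviations are bound to one another. Whether same-numbered mice shared a source therefore cannot be told from them. Without a filter, the median of the members outside the simple class was 0.033, since all 55 entered, most near 0 FPKM. The simple keratin median ranged from -0.08 to 0.05 and that of the others from 0.27 to 0.37 as libraries were left out. The median of the others was 0.54 with a pseudocount of 0.1, and 0.18 with the filter of 0.1 FPKM, which let in more members. The log2 ratio of squamous to simple keratins (0.25) ranged from 0.07 to 0.53 without 1 library and was 0.14 as a difference of mean logs. Chosen after seeing the data, it was 0.63 without Krt17. With Sprr, Lor, Sbsn, Dsg3 and Dsc3 added it was 0.52. That enlarged sum was nearly all Sprr2a copies (8011 of 8073 FPKM in KO replicate 1), so 0.52 describes those copies and not the squamous keratins. The lowest members rest on few reads, such as Krt5 on about 5.99 to 10.1 in KO and 1.94 to 7.99 in WT libraries.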
